A study of Mus musculus with 282 samples.

Results

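The genes described here are 36 mouse genes of the endoplasmic reticulum (ER): its folding enzymes, its translocation and glycosylation machinery, and the sensors and targets of the unfolded protein response (UPR). They were taken by symbol, and all 36 were found among the 49671 Ensembl genes of the deposited count table. They were measured in single hematopoietic stem cells (HSCs) of mouse bone marrow, sorted as lineage-negative, Sca-1-positive, Kit-positive cells that were also CD150+ and CD48-/lo. All donor mice carried the R26 rtTA/rtTA and Col1A1 H2B-GFP/H2B-GFP alleles, a transactivator that needs doxycycline and a histone-GFP reporter under its control, and the labels give them as un-induced. The series description counts 6 mice aged 12 to 22 weeks over separate experiments.

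Every cell belongs to 1 labelled group, and no label ties a cell to a mouse. The group therefore counts as 1 sample, and no p-value is given anywhere. The labels do give a library number, which begins with 29 or 32, and an HSC code whose meaning they do not state. Crossed, these give 6 technical sets. They are L29 HSC-3 and L29 HSC-4, followed by 4 sets of library series 32 with the codes HSC-2, HSC-3, HSC-4 and HSC-5, which are written L32 HSC-2 and so on. Lists of set values keep this order. Values below are given over these sets to show their spread, and an SD with n = 6 is an SD over sets, not over animals.

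Proteins bound for the cell surface or for secretion enter the ER through the Sec61 channel, receive N-glycans from the oligosaccharyltransferase, and fold with the help of chaperones and disulfide isomerases. When unfolded proteins accumulate, the membrane sensors IRE1, ATF6 and PERK start the UPR, which slows translation and induces genes for chaperones and for ER-associated degradation. HSCs are known for a low rate of protein synthesis and for a sensitivity to misfolded proteins.

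The promoters of the pair of genes that varied together most across cells, Hspa5 and Calr (rho 0.313, described below), are shown as background to that value. Both windows come from RefSeq, build GRCm38.p6, run from 250 bases before to 50 bases after the gene start, and read 5′ to 3′ along the gene's own strand. Capitals mark the longest run of letters that the windows share on either strand, which reads in opposite directions in the 2 genes.
Hspa5, chr2:34771840-34772139, + strand: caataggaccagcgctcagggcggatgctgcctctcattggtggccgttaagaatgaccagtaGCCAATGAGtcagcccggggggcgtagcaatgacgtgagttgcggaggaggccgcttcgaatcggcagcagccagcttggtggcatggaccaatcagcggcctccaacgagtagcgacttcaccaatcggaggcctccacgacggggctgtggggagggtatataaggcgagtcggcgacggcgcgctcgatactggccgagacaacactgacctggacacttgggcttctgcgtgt
Calr, chr8:84846882-84847181, - strand: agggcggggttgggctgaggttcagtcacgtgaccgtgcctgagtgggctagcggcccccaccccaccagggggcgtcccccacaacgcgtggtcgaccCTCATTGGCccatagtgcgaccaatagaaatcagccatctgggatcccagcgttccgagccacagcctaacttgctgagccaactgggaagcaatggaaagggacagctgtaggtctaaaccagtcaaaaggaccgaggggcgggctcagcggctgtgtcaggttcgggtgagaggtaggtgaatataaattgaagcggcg

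The shared run is 9 bases long and holds the letters CCAAT. A window was present for 30 of the 36 ER genes, and 3 of them held the run. Hspa5 and Calr did so because the run was defined from them, so Eif2ak3 was the 1 further ER gene with it, and nothing is read from the count. Of all 27025 genes with a window, 280 held it, a share of 1.04%. A match is a description of letters and not a binding site.

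Of 282 wells, 232 held at least 100000 gene counts and 1000 genes and were kept. Kept cells had 116009 to 1680714 gene counts with a median of 280096, and the highest well under the filter had 99841. Detection of a gene in a cell required 10 CPM (its count relative to the cell's gene total), which is 2.8 reads in the median kept cell. The cells of L29 HSC-4 had a median of 4151 genes, where the other sets had 5126 to 5686. Their mitochondrial read share was 6.66%, where the others had 3.28% to 3.73%. The sorted cells carried the HSC markers listed for the check: 10 of 10 were detected in at least 10% of cells and 7 in at least 50%. Meis1 was found in 88.4% and Kit in 84.5%, while Fgd5 was found in 27.2%, Slamf1, which encodes the sort marker CD150, in 19.4%, and Tek in 12.9%. Plasma cells, which are rich in ER, left almost no reads. None of their 10 markers reached 10% of cells, and Jchain, Ighm, Tnfrsf17 and Iglc2 were at 10 CPM in 0 of 232 cells. Such a count allows a share of up to 1.29% (taken as 3 of 232 cells) by counting error only. The markers' summed mean was 2.34 to 21.4 CPM per set.

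Detection differed by role. In at least 50% of cells, 6 of 6 translocon genes, 6 of 7 oligosaccharyltransferase genes and 3 of 4 disulfide isomerases were detected. The same level was reached by 3 of 7 lumenal chaperones, by 0 of 3 sensors and by 0 of 3 degradation genes. Of the 36 genes, 34 were detected in at least 10% of kept cells and 22 in at least 50%, against 27.5% and 6.03% of all genes with a read. Edem1 at 9.05% and Eif2ak3 at 6.47% lay under the 10% level and Atf6 at 13.4% just over it. The median ER gene was detected in 60.6% of cells and the median of the 9689 genes at or over the 10% level in 27.6%. Reads of the 36 genes made up a median of 0.828% of a cell's gene reads, with a range from 0.281% to 2.15% over cells. The set means of that share ran from 0.705% in L32 HSC-4 to 0.983% in L32 HSC-3. A cell had between 4 and 31 of the 36 genes at 10 CPM with a median of 20, and the set medians ran from 15 in L29 HSC-4 to 22.5 in L32 HSC-3.

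**Figure D1:**
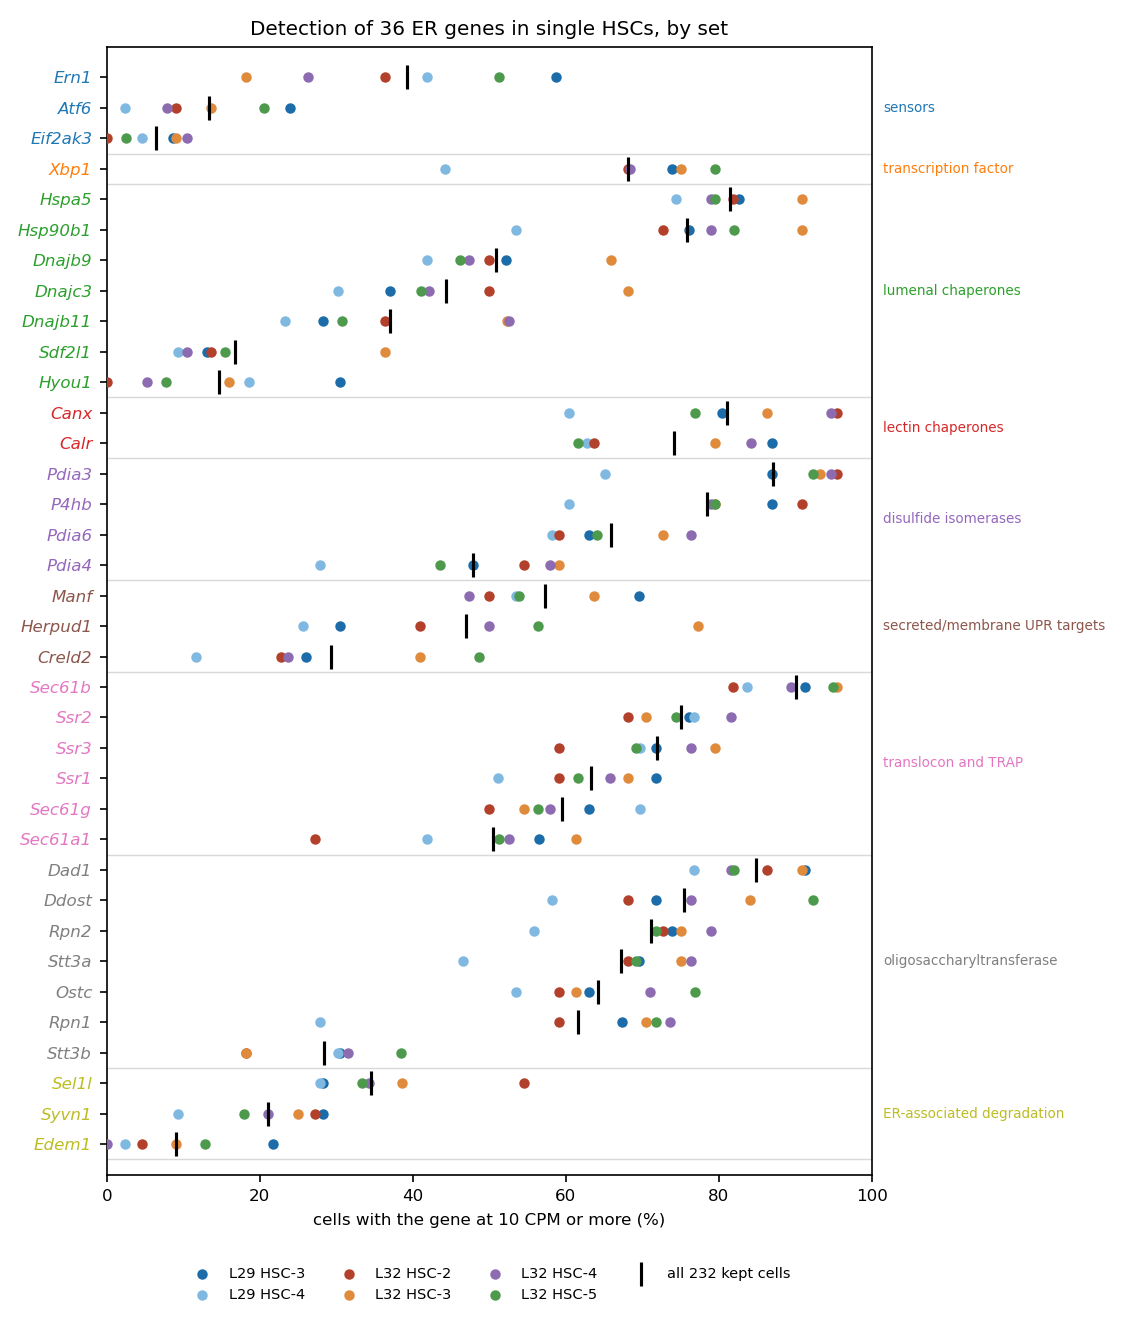
Share of kept cells (%) with each ER gene at 10 CPM or more, with a colored point for each of the 6 sets and a black tick for all 232 kept cells; gene names are grouped and colored by role. Sec61b (90.1%) and Pdia3 (87.1%) stand at the right and the sensors Atf6 (13.4%) and Eif2ak3 (6.47%) at the left, and the light blue points of L29 HSC-4 are often the lowest.

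To compare genes with each other, reads were divided by exon length and scaled to 1 common total per cell (TPM). On that scale the median ER gene had 122 TPM against 26.2 TPM for the median gene tested. The highest mean was that of the disulfide isomerase gene Pdia3 at 481 ± 92.8 TPM (SD, n = 6 sets), followed by P4hb at 378 ± 80.3, Hspa5 at 344 ± 92.6 and Ddost at 331 ± 52.8 TPM. P4hb and Hspa5, and Hspa5 and Ddost, differed by less than either SD, while Pdia3 and P4hb differed by more than either. The lowest were Eif2ak3 at 3.37 ± 1.88, Edem1 at 5.19 ± 6.74, Hyou1 at 7.52 ± 5.14, Atf6 at 8.03 ± 4.45 and Syvn1 at 8.84 ± 4.68 TPM. Pdia3 stood at percentile 97.1 of the genes tested and Eif2ak3 at percentile 2.28. By role, the 7 oligosaccharyltransferase genes took 23.3% of all ER gene reads, the 4 disulfide isomerases 22.0%, the 7 lumenal chaperones 18.8%, and the 6 translocon genes 14.2%. The 3 sensors took 1.68% and the 3 genes of ER-associated degradation 1.61%. These shares are of reads, which favor long transcripts.

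The UPR is sensed by 3 membrane proteins. In detection, their genes Eif2ak3 and Atf6 ranked 36 and 34 of the 36 genes, and Ern1 ranked 26. Ern1 (ENSMUSG00000020715, chromosome 11, 106394650 to 106487852 in build mm10) encodes IRE1 alpha, the kinase and nuclease that splices Xbp1 mRNA. It was detected in 39.2% of cells (95% interval 32.9% to 45.8%, exact Clopper-Pearson). Its mean level in the sets, in that order, was 165, 176, 76.9, 22.2, 18.5 and 99.6 CPM. The pair of L29 sets were above all L32 sets, and within L32 the level of HSC-5 was above that of the other codes. Atf6 (ENSMUSG00000026663, chromosome 1, 170704674 to 170867771) encodes a membrane-bound transcription factor that is released by cleavage in the Golgi. It was detected in 13.4% of cells (9.26% to 18.4%) with set means of 67.6, 37.4, 31.1, 25.2, 9.00 and 63.0 CPM. Its sets overlapped between the library series. Eif2ak3 (ENSMUSG00000031668, chromosome 6, 70844515 to 70905245) encodes PERK, the kinase that phosphorylates eIF2 alpha. It was detected in 6.47% of cells (3.66% to 10.4%), with set means of 16.5, 16.8, 0.205, 12.0, 8.35 and 6.66 CPM. In L32 HSC-2 it reached 10 CPM in 0 of 22 cells, which allows a share of up to 13.6%. That limit is 3 of 22 cells, not the exact interval. Its mean there was above 0, so it had reads under the detection level and was not absent. Intervals cover counting error only, since they treat cells as independent draws and leave out the spread over sets and mice. For Ern1, detection ran from 18.2% in L32 HSC-3 to 58.7% in L29 HSC-3. PCR copies were also not marked by molecular identifiers.

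Xbp1 stood far above the sensors. Xbp1 (ENSMUSG00000020484, chromosome 11, 5520659 to 5525893) encodes the transcription factor that IRE1 activates by splicing; counts per gene do not separate its spliced from its unspliced mRNA. It was detected in 68.1% of cells (61.7% to 74.0%) at 288 ± 136 TPM (SD, n = 6 sets), the fifth level of the 36 genes. Its set means were 467, 318, 316, 707, 316 and 795 CPM. L32 HSC-3 and L32 HSC-5 were high, the other sets were low, and the library series overlapped. In the 68 cells without a read it was at 0, and in cells with a read the median was 512 CPM and the range from the 10th to the 90th percentile was 137 to 1367 CPM.

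Among the lumenal chaperones, Hspa5 was the most widely detected and Hyou1 the least. Hspa5 (ENSMUSG00000026864, chromosome 2, 34771970 to 34777547) encodes BiP, the Hsp70 chaperone that also holds the sensors inactive. It was detected in 81.5% of cells (75.9% to 86.3%), with set means of 771, 870, 794, 1103, 441 and 780 CPM. L32 HSC-3 was the highest set and L32 HSC-4 the lowest, and the series overlapped. Single cells reached 4288 CPM, 32 of 232 cells had no Hspa5 read, and among cells with a read the median was 729 CPM. Hsp90b1, which encodes GRP94, was detected in 75.9% of cells at 170 ± 36.7 TPM (SD, n = 6 sets). Of the J-domain co-chaperones of BiP, Dnajb9 was detected in 50.9% of cells, Dnajc3 in 44.4% and Dnajb11 in 37.1%. Sdf2l1, whose product works with that of Dnajb11, was detected in 16.8% of cells, with 36.4% in L32 HSC-3 and 9.30% to 15.4% in the other sets. Hyou1 (ENSMUSG00000032115, chromosome 9, 44379490 to 44392369), which encodes the nucleotide exchange factor GRP170, was detected in 14.7% of cells. Its set means were 55.1, 54.1, 0.377, 35.9, 9.36 and 15.7 CPM, so that both L29 sets were above the L32 sets. It had at least 1 read in 31.9% of cells, and its median in those cells was 8.59 CPM, under the detection level.

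The lectin chaperones hold glycoproteins that still carry a glucose on their glycan. Canx, which encodes membrane-bound calnexin (ENSMUSG00000020368, chromosome 11, 50293961 to 50325673), was detected in 81.0% of cells. Its set means were 502, 332, 477, 540, 477 and 514 CPM, of which L29 HSC-4 stood below all others. Calr, which encodes soluble calreticulin (ENSMUSG00000003814, chromosome 8, 84841850 to 84846934), was detected in 74.1% of cells with set means of 267, 306, 200, 339, 221 and 176 CPM. Its sets overlapped between the series. A Calr pseudogene, Calr-ps, is annotated, and the counting of reads with several loci is not stated in the labels, so the Calr level is uncertain to that extent.

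The disulfide isomerases form and reshuffle disulfide bonds in folding proteins. Pdia3, which encodes ERp57, the isomerase that works with calnexin and calreticulin (ENSMUSG00000027248, chromosome 2, 121413775 to 121438687), was detected in 87.1% of cells. Its set means were 927, 637, 865, 965, 722 and 769 CPM, and the largest was 1.52 times the smallest. P4hb, which encodes the founding protein disulfide isomerase, was detected in 78.4% of cells and Pdia6 in 65.9%. Pdia4 (ENSMUSG00000025823, chromosome 6, 47796141 to 47813430), which encodes ERp72, was the least detected of the 4 at 47.8%. Its set means of 139, 159, 233, 186, 157 and 187 CPM lay close together, while its detection ran from 27.9% in L29 HSC-4 to 59.1% in L32 HSC-3.

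Manf, Herpud1 and Creld2 are UPR targets that are not chaperones in the strict sense. Manf, which encodes a secreted factor retained in part in the ER (ENSMUSG00000032575, chromosome 9, 106838312 to 106891979), was detected in 57.3% of cells with set means of 204, 243, 105, 159, 63.8 and 124 CPM. Both L29 sets were above the L32 sets. Manf shares 146 exon bases with Dcaf1 on the opposite strand, and without stated use of strand these reads cannot be told apart. Herpud1, whose product sits in the membrane and takes part in degradation, was detected in 47.0% of cells, from 25.6% in L29 HSC-4 to 77.3% in L32 HSC-3. Creld2 (ENSMUSG00000023272, chromosome 15, 88819646 to 88826681), which encodes an ER-resident protein, was detected in 29.3% with set means of 62.0, 61.8, 45.0, 68.7, 33.9 and 102 CPM. Its highest and lowest sets were both in L32.

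All 6 translocon genes were detected in at least 50% of cells. Sec61b, which encodes the beta subunit of the Sec61 channel (ENSMUSG00000053317, chromosome 4, 47474658 to 47483242), was detected in 90.1% of cells (85.5% to 93.6%), the highest share of the 36. Its set means were 188, 309, 78.5, 166, 118 and 135 CPM, with both L29 sets above the L32 sets. Sec61g, which encodes the small gamma subunit, was detected in 59.5% at 21.3 TPM, and it had a read in 84.1% of cells. Sec61a1, which encodes the pore itself (ENSMUSG00000030082, chromosome 6, 88503579 to 88518905), was detected in 50.4% with set means of 214, 99.8, 69.2, 164, 147 and 148 CPM. L29 HSC-3 was the highest of these and L32 HSC-2 the lowest. Ssr1, Ssr2 and Ssr3 encode subunits of the translocon-associated protein complex (TRAP) and were detected in 63.4%, 75.0% and 72.0% of cells. Ssr2 shares 12.8% of its exon bases with Gm10704 on the opposite strand, so its level is uncertain to that extent.

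The oligosaccharyltransferase genes were detected in 61.6% to 84.9% of cells with the exception of Stt3b. Dad1, which encodes a small subunit (ENSMUSG00000022174, chromosome 14, 54235479 to 54254104), led with 84.9% and set means of 334, 363, 265, 255, 219 and 219 CPM. Both L29 sets were above the L32 sets. The enzyme has a catalytic subunit in alternative forms, STT3A, which acts at the translocon, and STT3B, which acts on sites that STT3A skipped. Stt3a was detected in 67.2% of cells at 79.7 ± 13.0 TPM and Stt3b in 28.4% at 33.0 ± 9.81 TPM (SD, n = 6 sets). Stt3b (ENSMUSG00000032437, chromosome 9, 115242581 to 115310421) had set means of 91.1, 116, 42.6, 44.7, 78.9 and 80.9 CPM, the L29 sets being the highest. Of the shared subunits, Ddost was detected in 75.4%, Rpn2 in 71.1% and Rpn1 in 61.6% of cells. Ostc, a subunit of the STT3A form, was detected in 64.2%.

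The 3 degradation genes were detected in 9.05% to 34.5% of cells. SEL1L and the ubiquitin ligase HRD1, encoded by Syvn1, form the channel complex that hands proteins back to the cytosol. Sel1l (ENSMUSG00000020964, chromosome 12, 91806043 to 91849157) was detected in 34.5% of cells with set means of 89.6, 77.3, 180, 74.1, 90.4 and 129 CPM, with L32 HSC-2 the highest. Syvn1 was detected in 21.1% at set means of 9.89 to 44.2 CPM; 83 of its exon bases lie opposite to Mrpl49, which had 238% of its reads. Edem1 (ENSMUSG00000030104, chromosome 6, 108828641 to 108859356), which encodes a mannose-trimming factor, was detected in 9.05% of cells with set means of 64.2, 8.96, 0.703, 11.1, 0 and 12.7 CPM. Its level in L29 HSC-3 was above that of every other set, while L32 HSC-4 had it in 0 of 38 cells. This count allows a share of up to 7.89% (taken as 3 of 38 cells).

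**Figure D2:**
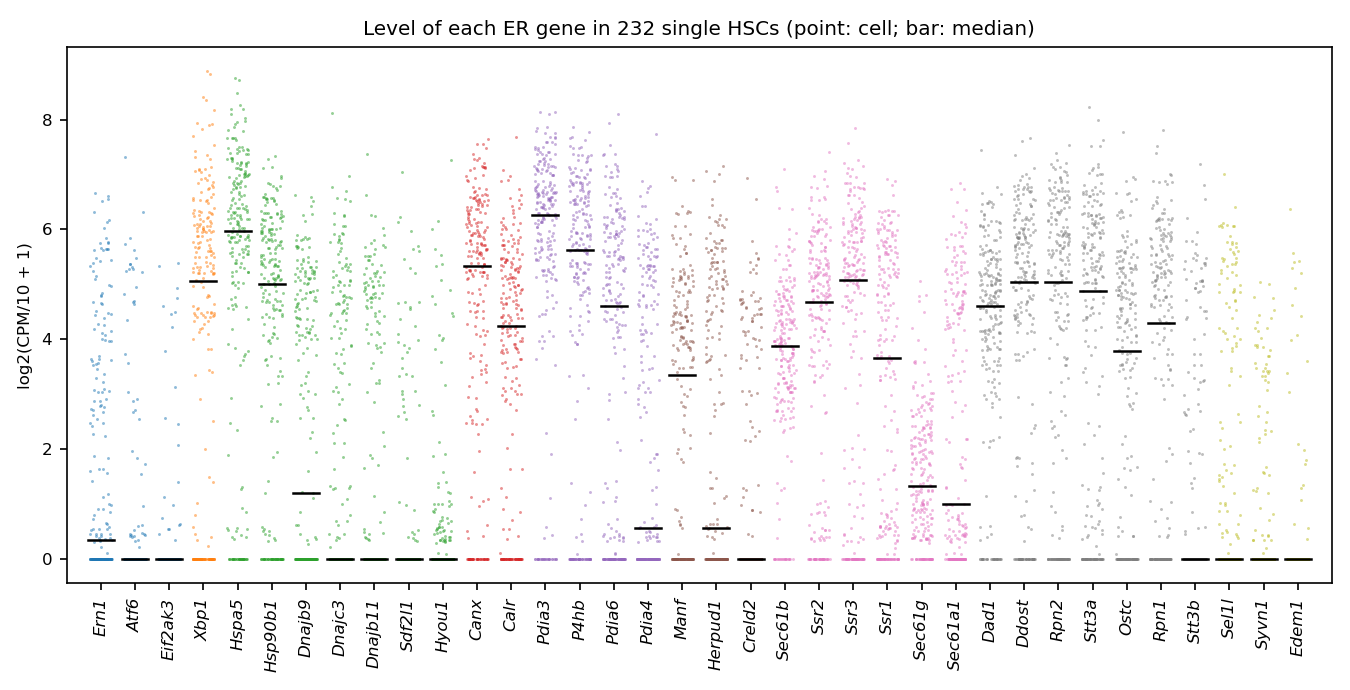
Level of each of the 36 ER genes in every kept cell as log2(CPM/10 + 1); each point is 1 of 232 cells, black bars are medians over cells, and colors mark roles in the order of the detection plot. Pdia3, Hspa5 and P4hb have the highest medians, and genes such as Pdia4 and Sec61a1 show a band of cells near 0 and a separate band above.

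Across the library series, both L29 sets lay above all 4 L32 sets in mean CPM for 8 of the 34 ER genes tested and below them for 1, against 13.4% and 14.2% of all genes tested. The 8 were Ern1, Hyou1, Manf, Sec61b, Ssr2, Stt3b, Dad1 and Ostc, and the 1 below was Dnajb11. The log2 ratio of L29 over L32 ran from 0.54 for Dad1 and Ostc to 1.83 for Hyou1, and it was -0.89 for Dnajb11. These counts turned with the scaling. With median-of-ratios size factors 3 lay above and 7 below (4.57% and 28.1% of all genes), and with spike-in scaling 13 lay above and 0 below (33.4% and 1.26%). Without L29 HSC-4, where the remaining L29 set alone is compared, 15 lay above and 4 below, against 23.7% and 22.3% of all genes. Without L29 HSC-3 11 lay above and 8 below, against 24.9% and 35.3%. Without L32 HSC-3 the count below was 2, against 17.6% of all genes, and without L32 HSC-4 it was 5, against 17.5%. In the median ER gene the largest set mean was 2.23 times the smallest, against 2.76 times in the median gene tested.

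Cell-to-cell variation was read against genes of like mean, because variance depends on level. For each gene and set, the squared coefficient of variation of CPM was divided by its running median over 201 genes of near mean, and the log2 of this ratio is given. It was above 0 in 6 of 6 sets for 9 of 34 ER genes, against 13.3% of all genes tested, and below 0 in 6 of 6 sets for 3, against 21.3%. The 9 were Hspa5, Atf6, P4hb, Pdia3, Pdia6, Stt3a, Canx, Rpn1 and Rpn2. Hspa5 had the highest mean ratio at 1.53 ± 0.37 (SD, n = 6 sets), followed by Xbp1 at 1.37 ± 1.00, which was above 0 in 5 of 6 sets, and Atf6 at 1.10 ± 0.75. P4hb stood at 0.89 ± 0.29 and Pdia3 at 0.85 ± 0.22. The 3 genes below were Sec61g at -2.04 ± 0.77, Sec61b at -1.72 ± 0.83 and Dad1 at -0.67 ± 0.26, which encode small subunits of larger complexes. For Sec61b and Dad1, CPM was higher in near-empty wells (described below) than in the 66 kept cells beside them. Their values were 211 against 137 and 287 against 274 CPM, while Sec61g had 8.11 against 26.5 CPM. Of all 2063 genes with variance below in 6 of 6 sets, 837 were higher in those wells. Among all genes tested, 21.3% were. The part of background reads in the low variance was not tested. The median ratio was 0.25 over the ER genes and 0.10 over all genes tested. A mean above 0 was found for 22 of 34 ER genes. The share of all genes above 0 is not given, so nothing is read from that count.

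**Figure D3:**
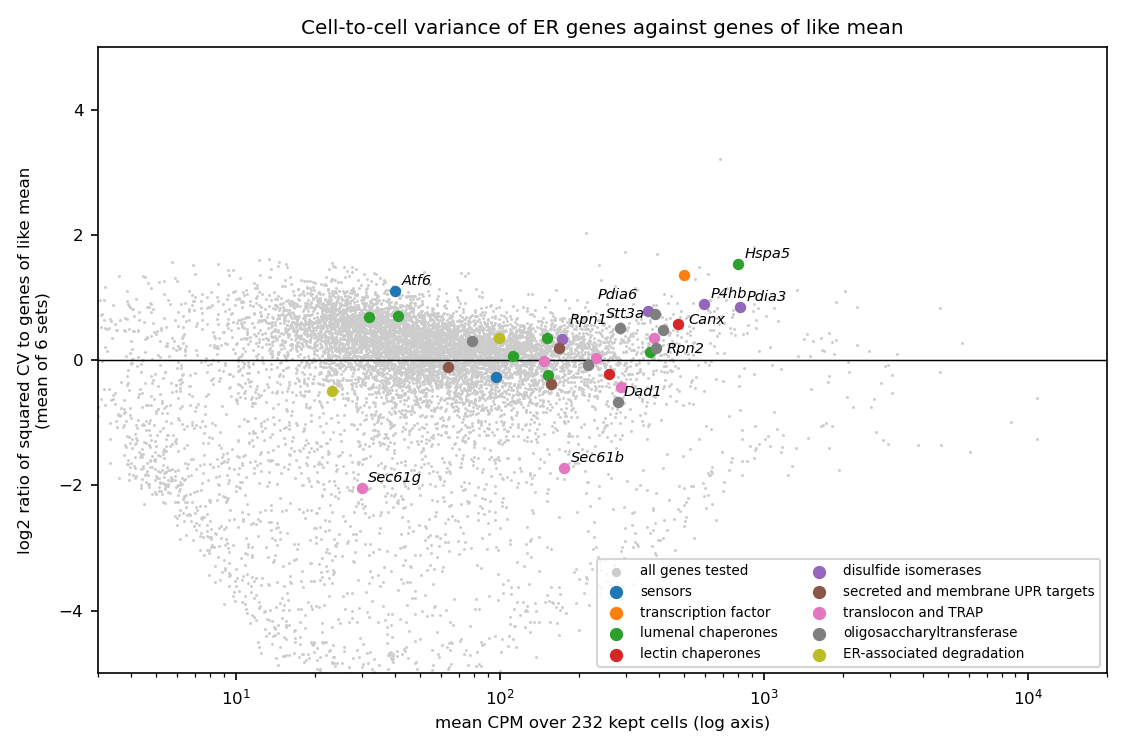
Squared coefficient of variation relative to genes of like mean (log2 ratio, mean of 6 sets) against mean CPM on a log axis; gray points are all genes tested, colored points the 34 ER genes by role, and named genes are on 1 side of 0 in 6 of 6 sets. Hspa5 at 1.53 is the highest ER gene, and Sec61g at -2.04 and Sec61b at -1.72 are the lowest.

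A bimodality coefficient (Sarle) was computed on log2(CPM/10 + 1) after the set mean was subtracted; values over 5/9 are those of distributions with separate peaks or strong skew. It was over 5/9 for 33 of 34 ER genes, where 85.9% of all genes tested were also over it, so the count is near the background. The exception was Sec61g at 0.435. Cells with no read of a gene make up the low peak in most cases. Among cells with a read only, 15 of 34 ER genes were over 5/9, against 29.0% of genes, and the median coefficient was 0.549 for ER genes and 0.506 for genes tested. Hyou1 at 0.667, Ssr3 at 0.659, Ssr2 at 0.658 and Ssr1 at 0.656 had the highest values there. Hyou1 and the TRAP genes had cells with few reads beside cells with many: 10% of the cells with an Ssr1 read were under 4.85 CPM and 10% were over 671 CPM. Sec61b was at the other end with 0.290, and the 10th and the 90th percentile of its cells with a read were 54.8 and 342 CPM.

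Genes that vary together across cells were looked for with partial Spearman correlations within each set, given total counts, genes detected and plate, and averaged over sets. All such correlations were small, share depth and library preparation, and are given as a description over 232 cells. Of 561 pairs of ER genes, 33 were positive in 6 of 6 sets, or 5.88%, against 1.63% of all pairs of genes tested. Another 6 pairs were negative in 6 of 6 sets, against 1.70% of all pairs. The median rho over pairs was 0.040, and that over all pairs of genes was 0.002. Of ER pairs, 71.8% were above 0. The share of all pairs above 0 is not given, so nothing is read from that value. Without L29 HSC-3, L29 HSC-4 or L32 HSC-4 the share positive in the 5 remaining sets was 9.09%, 9.08% and 10.1%, where fewer sets have to match and 3.18%, 3.17% and 3.17% of all pairs did.

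The highest pair was Hspa5 with Calr, at a mean rho of 0.313 and 0.023 to 0.562 over sets. Hspa5 with Pdia3 followed at 0.299 (0.058 to 0.471). Both joined BiP to a folding factor. Hsp90b1 with Dnajb11 stood at 0.266, Hsp90b1 with Pdia6 at 0.253 and Pdia4 with Pdia6 at 0.252. Next came P4hb with Sec61g at 0.243, Xbp1 with Hspa5 at 0.239, Manf with Dad1 at 0.219, and Dnajb11 with Sdf2l1 and Hspa5 with Pdia6, both at 0.218. Of these 10 pairs, Dnajb11 with Sdf2l1 was positive in 5 of 6 sets and the other 9 in 6 of 6. Hspa5 and Pdia6 each took part in 7 of the 33 pairs positive in 6 of 6 sets, and Manf in 5. Among the disulfide isomerases all 6 pairs were above 0, with a median rho of 0.132. Among the oligosaccharyltransferase genes 11 of 21 pairs were, with a median of 0.001, although their products form shared complexes. The lowest pairs were Hyou1 with Stt3a at -0.236 and Sec61a1 with Stt3b at -0.175, the latter negative in 6 of 6 sets.

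**Figure D4:**
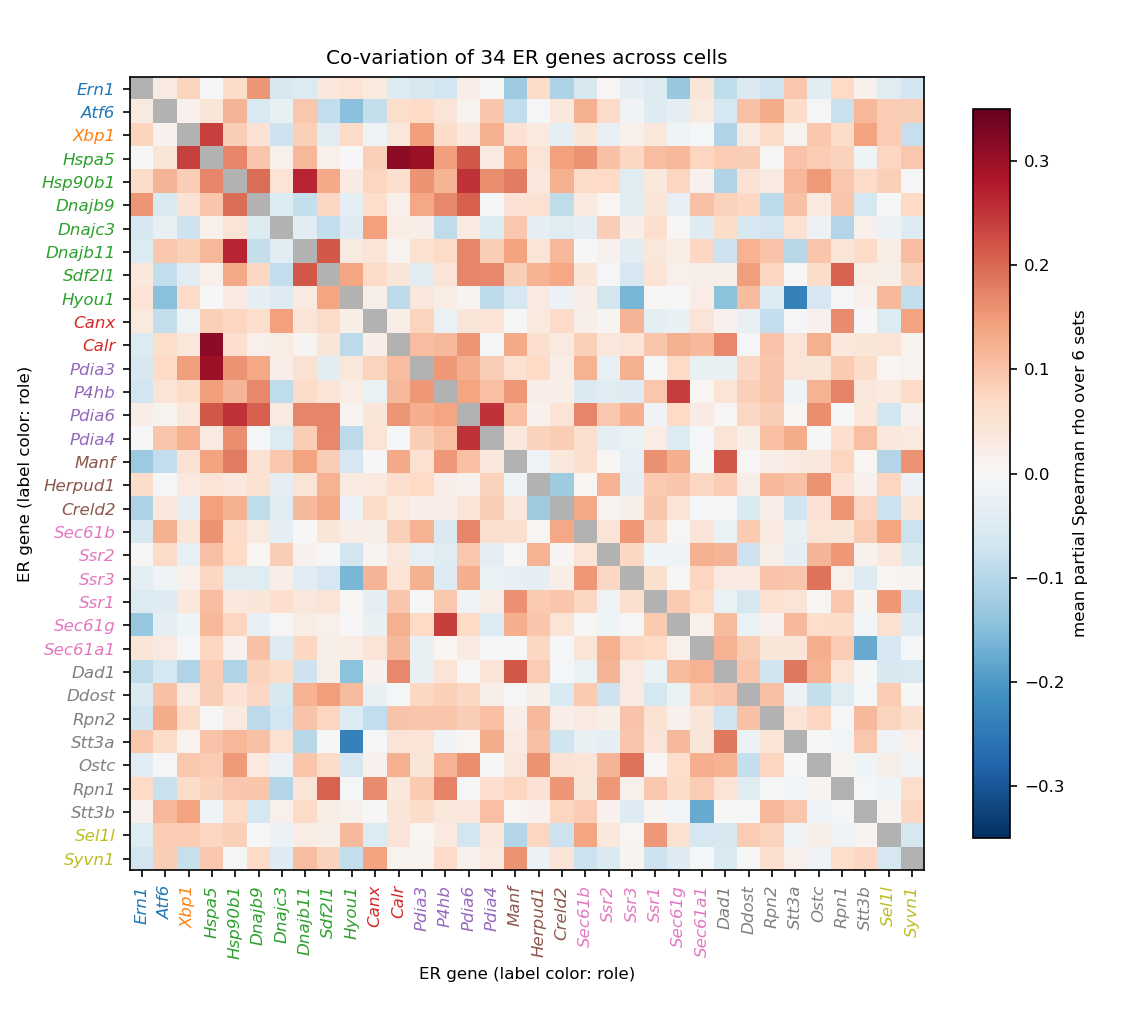
Mean partial Spearman rho over 6 sets for each pair of the 34 ER genes tested, with red for positive and blue for negative values and names colored by role. The reddest cells join Hspa5 to Calr (0.313) and to Pdia3 (0.299), and the bluest joins Hyou1 to Stt3a (-0.236).

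Each gene was then compared with the mean log level of the other ER genes in the same cell. Of the 34 genes, 12 were positive in 6 of 6 sets, against 3.34% of all genes tested. A mean rho above 0 was found for 32, and the share of all genes above 0 is not given. Hspa5 was the highest at 0.385 ± 0.102 (SD, n = 6 sets), followed by Hsp90b1 at 0.310 ± 0.139, Pdia6 at 0.298 ± 0.161 and Pdia3 at 0.280 ± 0.189. The other 8 were Dnajb9, Dnajb11, Calr, Pdia4, Sec61b, Rpn2, Ostc and Sel1l. Ern1 at -0.022 and Hyou1 at -0.102 were the 2 genes below 0. The median was 0.160 for ER genes and 0.012 for genes tested.

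The share of reads on ER genes moved with the RNA content of the cell. Within sets, its Spearman rho with gene reads per spike-in read was 0.295 (0.108 to 0.468, positive in 6 of 6 sets), with genes detected 0.198 (6 of 6 sets) and with total gene counts 0.113 (5 of 6 sets). With the mitochondrial share it was -0.133 and positive in 3 of 6 sets. The number of ER genes detected had a rho of 0.671 with all genes detected and 0.666 with gene reads per spike-in read. With RNA content and mitochondrial share added as covariates, 4.81% of ER pairs were positive in 6 of 6 sets, against 1.6% of all pairs.

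Outside the 36, the genes with the highest rho to the ER genes and 1 sign in 6 of 6 sets were Srpk1 (0.339), which encodes a splicing factor kinase, and Mdh2 (0.332), which encodes a mitochondrial malate dehydrogenase. Tuba1c, Pfn1, Banf1, Ptma, Uqcc2, Zc3hav1, Morf4l2 and Ahsa1 followed, between 0.290 and 0.313. Ahsa1 encodes a co-chaperone of cytosolic Hsp90. The lowest were Nr1d2 (-0.270), Trim26 (-0.257), Hinfp (-0.251), Slc34a2 (-0.243) and Txnip (-0.242). Slc34a2 stood at 25842 CPM in wells that were nearly empty (described below) and at 123 CPM in the kept cells beside them, and its part in that correlation was not tested. The negative direction held 1.94% of all genes tested.

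Further genes of the same processes had been listed by role. Of 17 other translocation genes, 16 were detected in at least 10% of cells, led by Spcs2, a signal peptidase subunit, at 82.8% and Sec62 at 82.3%. Among the 16, 10 had a rho above 0 to the ER genes, with a median of 0.067 against 0.012 for all genes tested. The share of all genes above 0 is not given for this or the lists that follow. Spcs2 at 0.170 and Spcs3 at 0.273 were positive in 6 of 6 sets. Of 16 other folding genes, 15 were detected in at least 10% of cells, led by the proline isomerase gene Ppib at 79.3% and by Erp29 at 49.1%. A rho above 0 was found for 14 of the 15, with a median of 0.083. Of 15 other degradation genes, 13 were detected in at least 10% of cells, led by Selk at 84.5% and the ATPase gene Vcp at 75.9%. Among the 13, 9 had a rho above 0, with a median of 0.053. Of 12 other UPR signalling genes, 11 were detected in at least 10% of cells, led by Eif2s1, which encodes eIF2 alpha, at 59.9% and by Atf4 at 46.1%. Of those 11, 4 had a rho above 0, with a median of -0.019. The summed level of the UPR signalling list had a rho of -0.165 to the ER genes and was positive in 0 of 6 sets. The same value was 0.152 for the translocation list (positive in 5 of 6 sets) and 0.192 for folding (6 of 6). For degradation it was 0.135 (3 of 6). Ddit3, which encodes the late UPR factor CHOP and was chosen after its value was seen, was detected in 27.2% of cells. Chac1, a further late target chosen likewise, was at 10 CPM in 0 of 232, the lowest of the 12. Ppp1r15a and Trib3 of the same list, also chosen likewise, were detected in 27.6% and 22.0% of cells.

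Markers of other cell types were measured beside these values. The summed level of the 7 multipotent progenitor markers had a rho of 0.214 to the ER genes, positive in 5 of 6 sets, at 161 to 466 CPM per set. In that list 2 of 7 reached 10% of cells, Cd34 at 50.4% and Flt3 at 11.6%. The HSC identity markers summed to 3145 to 4302 CPM per set with a rho of -0.160, positive in 1 of 6 sets, and plasma cell markers had a rho of -0.055. The endothelial and stromal list, with 3 of 9 at 10% of cells, had a rho of -0.172, and the erythroid list with 2 of 9 had a rho of 0.108. B cell markers (1 of 8 at 10% of cells), T and NK cell markers (0 of 8), myeloid (2 of 12), megakaryocyte (5 of 8) and mast cell and basophil markers (0 of 7) had rho values between -0.060 and -0.008. The 2 myeloid markers past that level were as widely detected as the leading ER genes: Lyz2 was in 87.1% of cells at a mean of 619 CPM and Prtn3 in 81.9% at 407 CPM. Among the other myeloid markers, Mpo was in 1.72% of cells, and Elane and Ctsg were at 10 CPM in 0 of 232. The summed myeloid level was 892 to 1104 CPM per set. The megakaryocyte marker Mmrn1 was in 65.5% of cells, from 20.9% to 84.6% over sets. Their part in the ER gene values was not tested.

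Background was measured in 38 near-empty wells. They belonged to the codes HSC-2 and HSC-3 of library series 32 and had fewer gene reads than spike-in reads and 616795 gene reads in all. ER genes made up 0.331% of these reads, against 0.895% in the 66 kept cells of the same sets. Per spike-in read, the near-empty wells held 0.327% of the ER reads of kept cells, while for all genes it was 0.885%. For the median ER gene the value was 0.172%. Per spike-in read, 0 ER genes had more reads in the near-empty wells, where 0.248% of genes tested did. In CPM, which compares the make-up of reads, 5 genes were higher in the near-empty wells, against 21.3% of genes tested. Dnajc3 had 947 against 178 CPM, Hyou1 125 against 24.7, Syvn1 74.6 against 19.3, Sec61b 211 against 137 and Dad1 287 against 274 CPM. The other 4 sets had no such wells, and background there was not measured.

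**Figure D5:**
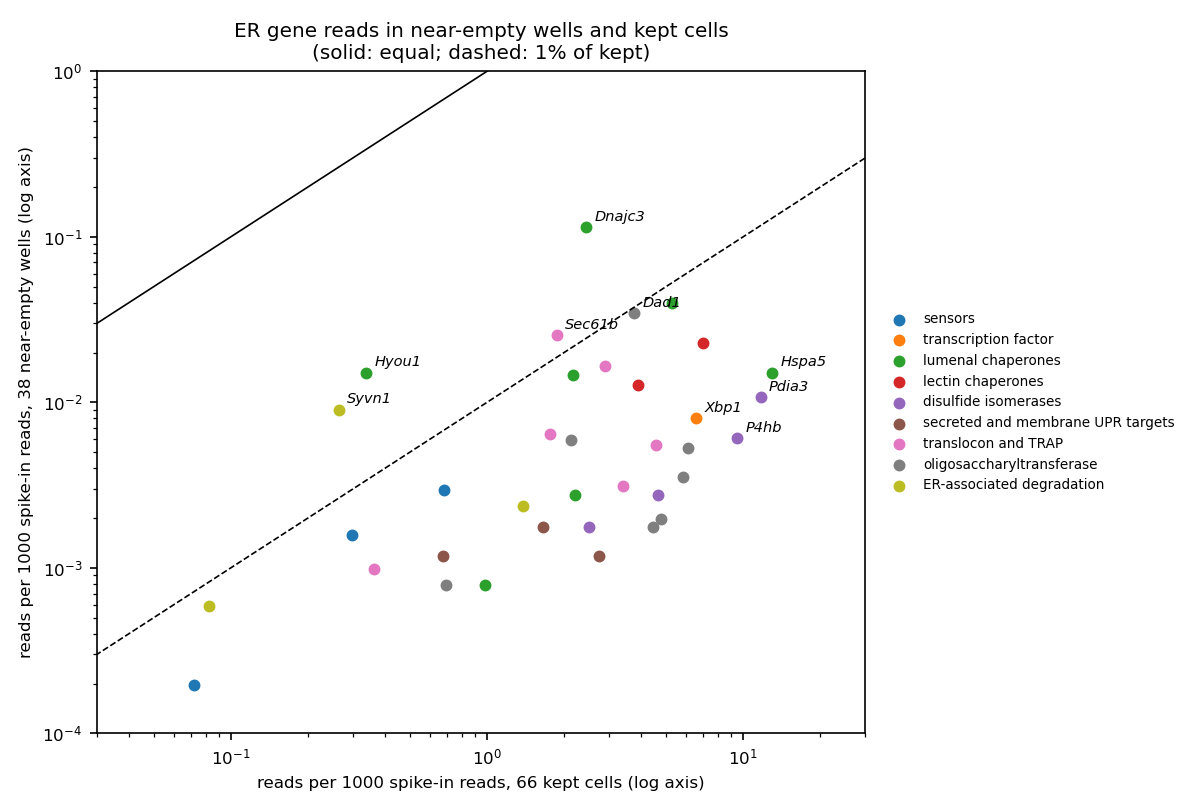
Reads of each ER gene per 1000 spike-in reads in 38 near-empty wells (vertical, log axis) against 66 kept cells of the same sets (horizontal, log axis), colored by role; the solid line marks equal values and the dashed line 1% of the kept value. All 36 genes lie under the solid line, and Dnajc3, Hyou1, Syvn1 and Sec61b lie over the dashed one.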

How the data were processed

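Single HSCs were sorted into wells. Full-length cDNA from poly(A) RNA went through 22 PCR cycles without molecular identifiers, per the labels' protocols. The values are raw read counts, deposited by the authors as a table of genes by cells. The submitters' processing notes name GSNAP, featureCounts version 1.6.2 and build mm10. Strand use and the counting of multi-mapped reads are not stated there. Of all counts, 11.7% were on 92 ERCC spike-in rows, which stayed out of gene totals.

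From the deposited counts, CPM per cell was computed over Ensembl genes, and log values are log2(CPM/10 + 1). No 2 cells had identical counts. Genes at 10 CPM in at least 10% of kept cells were tested for variance, bimodality, co-variation and set differences. Correlations were averaged over sets as Fisher z, weighted by cells minus 3. Variance, bimodality and correlation steps were tested on simulated data. Python 3.11.15, numpy 2.4.6, scipy 1.17.1 and pandas 2.3.3 were used.

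The members and the lists (184 entries, 3 found by an older symbol) were chosen with earlier results of these data known; the values behind the choice of members are not stated, so every value is a description and supports no test. All 36 members are named. Values per set are given for the sensors, Xbp1, and the most and least detected gene of each role. Outside the members, the 10 highest and 5 lowest correlations with 1 sign in 6 of 6 sets, the 2 most detected genes of each further ER list and the 10 highest pairs are named; predicted genes and pseudogenes are not. Promoter windows are from RefSeq (GRCm38.p6), and the pair shown was chosen after its correlation was seen.

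Alternatives were other detection minimums (1 read, 20 CPM), thinning to 100000 reads, a stricter cell filter (218 cells), each set left out, median-of-ratios and spike-in scaling, other covariates, other gene filters, a pseudocount of 1 CPM, cells with a read, and a spike-in variance fit.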

Additional observations from a re-analysis of the deposited data

Results flagged for a closer look

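Among 37 values looked at over the 6 sets (the mean CPM of each ER gene and the ER share of reads), 2 had 1 set far from the other 5, where chance gives about 1 in 20. Canx, which encodes calnexin, had a mean of 331.89 CPM in L29 HSC-4 against 477 to 540 CPM in the other sets; that set also had fewer genes per cell and a higher mitochondrial share, and their part in the value was not tested. Edem1, a degradation factor, had a mean of 64.2 CPM in L29 HSC-3 against 0 to 12.7 CPM in the other sets, at a detection of 9.05% of all cells.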

How the results depend on the processing

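No paired analysis was possible because all cells form 1 group and no result comes from a test. Of 96 recomputed summary values, 77 stayed within their tolerance (1.5 times for counts, 1 SD over sets for values) and 19 moved; of 1370 values of single genes, 1339 stayed and 31 moved, 21 of them under spike-in scaling. With spike-in scaling the ER level was 1.06% of the gene reads of a cell with the median ratio of gene to spike-in reads. That is not a share of each cell's own reads, whose mean over sets was 0.873%. The median pair rho was then 0.072, against 0.010 over all pairs. The share of pairs positive in 6 of 6 sets was then 10.3% (against 2.40% of all pairs). In the L29 sets 13 genes lay above and 0 below, against 33.4% and 1.26% of all genes. With median-of-ratios scaling 3 lay above and 7 below, against 4.57% and 28.1% of all genes. The stricter cell filter gave 2 below, for which the share of all genes is not given, so nothing is read from that count. With plate as sole covariate the median pair rho was 0.065, against 0.018 over all pairs. With genes in at least 50% of cells it was 0.062, for which the value over all pairs is not given. With cells with a read only, 15 genes were over the bimodality threshold, against 29.0% of all genes. Leaving out each set in turn gave 6.95% to 10.1% for pairs positive in every remaining set, against 3.13% to 3.22% of all pairs. In L29, 8 to 15 genes then lay above and 1 to 8 below, where fewer sets have to match. Of all genes, 15.4% to 24.9% lay above and 17.4% to 35.3% below. The count of genes with variance above genes of like mean ran from 8 to 12 over its alternatives; the value of 12 arose with the spike-in variance fit, against 6.43% of all genes, and without L32 HSC-2, against 16.3%. The count of genes detected in at least 50% of cells ran from 20 to 24 with a set left out. The median of gene reads per spike-in read was 29.1 in L29 HSC-3 and 13.9 to 17.4 in the other sets. The cause of the changes with scaling was not tested. Of the 36 genes, Eif2ak3 had the lowest mean at 3.28 reads per kept cell, followed by Edem1 at 5.13 and Syvn1 at 7.12 reads.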
